A study of Mus musculus with 18 samples.

Results

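Knockout stem cells were set against knockout progenitors: the accessible regions of HSC (haematopoietic stem cells) and HPC (the progenitors below them) from mice in which Kmt2c had been deleted. Members were chosen by label. The groups are HSC and HPC of Kmt2c f/f; Vav-Cre mice at 8 weeks of age, with 2 samples each and genotype Kmt2c -/- in the labels. Each group has 1 deposited peak list that pools its samples, and overlapping rows of a list were merged into regions. The comparison thus covers 48620 HSC regions and 52840 HPC regions, 101460 of the 358828 regions in the 6 lists of the series. Both sides carry the deletion, so it compares cell types within the knockout, and each is 1 list without replicate values.

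The study applied ATAC-seq to 18 mouse samples in 6 groups, and its title places Kmt2c mutation beside activated and quiescent HSC and chemotherapy. Besides the knockout groups, the labels give wild-type HSC (2 samples) and wild-type HPC (4 samples) at 8 weeks of age. At 16 weeks they give wild-type HSC dosed with PBS (the vehicle, 4 samples) or with 5-fluorouracil at 150 mg/kg (4 samples), both every 3 weeks, 3 times. These 4 lists, of 40073, 65832, 80100 and 71363 regions, were used here only to look up regions and as the wild-type counterpart. Vav-Cre acts in blood cells at large, so HSC and HPC had both developed without Kmt2c. The markers used to sort the cells, the pooling of animals and whether wild-type mice carried Cre are not given in the labels.

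ATAC-seq uses the Tn5 transposase to cut and tag DNA that is not packed away, so enriched regions mark promoters, enhancers and other accessible elements. Kmt2c (also called MLL3) is a histone methyltransferase that places methyl groups on histone H3 lysine 4, mainly at enhancers, which are regulatory elements that act at a distance from gene starts. Stem cells divide rarely and keep self-renewal genes active, while progenitors divide more and prepare the genes of the blood lineages.

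Promoters that the lists separated are shown first, as the DNA behind the gene-level results. Each is the 250 bases before a RefSeq gene start (GRCm38.p6, the same genome as the files' mm10), read 5′ to 3′ on the gene's strand. Capitals mark matches, on either strand, to short motifs named after the factors that bind them: GATAA for GATA factors, GGAAG for ETS factors, TGTGGT for RUNX factors, TGANTCA for AP-1, TTGCNNAA for C/EBP and CAGCTG for E-box factors, with overlaps allowed. The 4 below overlapped a region in the knockout HSC list and none in the knockout HPC list. They are shown because they belong to a transcription factor of stem cells (Gata2), a mast cell protease (Cpa3), a growth suppressor of quiescent HSC (Ndn) and a homeobox factor (Hoxa5). Gata2 lies at chr6:88198414-88198663 on the plus strand, Cpa3 at chr3:20242182-20242431 on the minus strand, Ndn at chr7:62348027-62348276 on the plus strand and Hoxa5 at chr6:52204588-52204837 on the minus strand.
Gata2: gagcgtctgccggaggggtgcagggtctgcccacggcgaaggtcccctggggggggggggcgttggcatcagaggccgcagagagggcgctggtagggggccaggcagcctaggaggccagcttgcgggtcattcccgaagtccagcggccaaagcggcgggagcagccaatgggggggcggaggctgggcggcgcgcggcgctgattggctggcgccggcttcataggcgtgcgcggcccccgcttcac
Cpa3: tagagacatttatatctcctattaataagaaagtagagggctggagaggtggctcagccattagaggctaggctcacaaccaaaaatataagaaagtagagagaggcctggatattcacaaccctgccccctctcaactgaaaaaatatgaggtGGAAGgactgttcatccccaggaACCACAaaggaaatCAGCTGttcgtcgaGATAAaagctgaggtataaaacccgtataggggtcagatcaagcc
Ndn: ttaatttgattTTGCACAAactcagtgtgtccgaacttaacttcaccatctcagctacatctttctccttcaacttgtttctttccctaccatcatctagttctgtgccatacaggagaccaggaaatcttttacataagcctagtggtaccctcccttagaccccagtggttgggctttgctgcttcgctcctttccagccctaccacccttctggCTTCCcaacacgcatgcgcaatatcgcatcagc
Hoxa5: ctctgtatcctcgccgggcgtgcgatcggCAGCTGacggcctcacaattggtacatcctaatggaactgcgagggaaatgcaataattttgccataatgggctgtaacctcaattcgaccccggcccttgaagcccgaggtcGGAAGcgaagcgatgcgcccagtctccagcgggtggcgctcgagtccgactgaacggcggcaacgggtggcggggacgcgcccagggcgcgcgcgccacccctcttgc

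Another 4 overlapped a region in the knockout HPC list and none in the knockout HSC list. They belong to a surface protein that appears as stem cells mature (Cd48), the receptor for interleukin-7 (Il7r), the recombinase of antigen receptor genes (Rag1) and a subunit of AP-1 (Fos). Cd48 lies at chr1:171681742-171681991 and Fos at chr12:85473640-85473889 on the plus strand, and Il7r at chr15:9529877-9530126 and Rag1 at chr2:101649533-101649782 on the minus strand.
Cd48: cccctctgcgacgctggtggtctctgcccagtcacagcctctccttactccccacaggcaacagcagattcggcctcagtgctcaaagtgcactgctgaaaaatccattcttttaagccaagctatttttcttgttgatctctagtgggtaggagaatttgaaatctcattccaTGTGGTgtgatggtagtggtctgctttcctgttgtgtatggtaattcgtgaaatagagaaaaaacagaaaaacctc
Il7r: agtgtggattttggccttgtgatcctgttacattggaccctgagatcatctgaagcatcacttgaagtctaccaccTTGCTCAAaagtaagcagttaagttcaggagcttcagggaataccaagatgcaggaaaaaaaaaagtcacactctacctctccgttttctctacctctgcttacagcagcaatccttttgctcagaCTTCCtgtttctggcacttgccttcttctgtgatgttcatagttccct
Rag1: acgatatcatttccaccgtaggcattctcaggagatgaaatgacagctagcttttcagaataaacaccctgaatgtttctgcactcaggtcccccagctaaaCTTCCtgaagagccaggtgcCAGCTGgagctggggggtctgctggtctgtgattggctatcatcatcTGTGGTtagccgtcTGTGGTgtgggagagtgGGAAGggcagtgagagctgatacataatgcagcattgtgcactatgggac
Fos: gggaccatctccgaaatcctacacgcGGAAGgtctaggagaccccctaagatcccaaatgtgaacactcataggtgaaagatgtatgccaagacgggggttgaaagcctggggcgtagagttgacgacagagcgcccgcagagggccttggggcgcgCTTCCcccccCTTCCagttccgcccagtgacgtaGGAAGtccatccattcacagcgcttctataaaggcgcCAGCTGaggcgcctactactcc

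In these 250 bases Cpa3 held 1 match each for GATA, ETS, RUNX and the E-box, and Gata2 held no match to any of the motifs. Rag1 held 2 RUNX and 2 ETS matches, Cd48 1 RUNX match and Fos 4 ETS matches. The GC content ran from 44.0% in Il7r and 44.4% in Cpa3 to 74.0% in Gata2. Over the full promoter windows, 250 bases before to 50 after the start, 861 overlapped a region in the HSC list only, 615 in the HPC list only and 9542 in both. The RUNX motif was in 11.0% of the HSC-only windows (95% Wilson interval 9.11 to 13.3), 15.8% of the HPC-only windows (13.1 to 18.9), 12.3% of those in both and 15.0% of all 21262 windows. The E-box was in 14.5% (12.3 to 17.0), 18.5% (15.7 to 21.8), 14.1% and 15.6%. The GATA motif was in 14.3%, 15.4%, 14.3% and 22.5%, the ETS motif in 73.9%, 72.7%, 77.0% and 72.4%, the AP-1 motif in 6.16%, 5.20%, 4.17% and 6.99%, and the C/EBP motif in 8.83%, 8.13%, 7.67% and 10.2%. The intervals of HSC-only and HPC-only windows overlapped for every motif, for RUNX only between 13.1 and 13.3. Such overlap does not show that the shares are equal, and the differences were not tested. A match describes the letters and does not show that a factor was bound.

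Kmt2c, the targeted gene, spans chr5:25271795-25498855. Its start was accessible in both knockout lists, with a fold enrichment of 6.98 in HSC and 10.8 in HPC. Fold enrichment is the authors' value for a region's signal over the local background of the same list. Besides 2 shared regions, the gene held 1 region found in the HSC list alone, at chr5:25472065-25472467, with a fold enrichment of 10.7. Which part of Kmt2c was deleted is not stated, and these regions therefore do not check the genotype.

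Most accessible regions were common to knockout HSC and knockout HPC. A region counted as shared where it overlapped the other list by at least 1 bp. Of the HSC regions, 10668 were absent from the HPC list, 21.9% (95% Wilson interval 21.6 to 22.3), and of the HPC regions, 14691 were absent from the HSC list, 27.8% (27.4 to 28.2). These intervals, here and below, cover the number of regions counted, not the spread between animals, and they treat neighbouring regions as independent. Of these, 9456 HSC-only and 12953 HPC-only regions had nothing of the other list within 1 kb. The lists also differ in length. With the 48620 strongest regions of each by −log10 p, the authors' measure of how far a peak exceeds background, 11924 were HSC-only and 11804 HPC-only. Lists of equal length whose regions mostly pair 1 to 1 give nearly equal numbers by construction. The near-equal numbers therefore cannot show where the difference comes from.

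Single-list regions were mostly weak. In the plot by strength, the share of regions absent from the other list ran from 61.7% (60.4 to 63.1) in the weakest 10% of the HSC list to 0.679% (0.484 to 0.951) in the strongest, which is 33 of 4863 regions. In the HPC list it ran from 66.5% (65.2 to 67.8) to 1.12% (0.867 to 1.44). The median HSC-only region stood at percentile 20.1 of its list by −log10 p, against 59.2 for shared regions, and the median HPC-only region at percentile 24.0 against 61.1. HSC-only regions had a median width of 397 bp against 509 bp for shared regions, and HPC-only regions 371 bp against 503 bp.

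**Figure D1:**
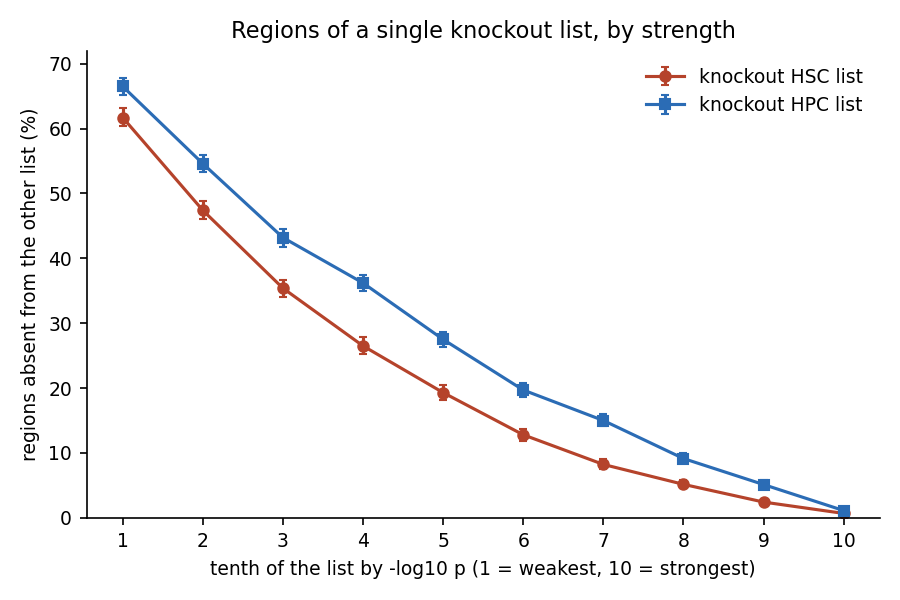
Share of regions absent from the other knockout list (y axis, %) in 10 equal steps of a list ordered by −log10 p (x axis, weakest to strongest), with 95% Wilson intervals as bars. Both curves go down at every step, from 61.7% to 0.679% in the HSC list and from 66.5% to 1.12% in the HPC list.

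Single-list regions lay away from gene starts. Of the HSC-only regions 13.0% (12.4 to 13.7) lay within 1 kb of a protein-coding gene start, against 29.7% (29.2 to 30.1) of shared HSC regions. Of the HPC-only regions it was 8.81% (8.37 to 9.28) against 29.8%. Inside a gene body lay 59.5% (58.5 to 60.4) of HSC-only and 54.7% (53.9 to 55.5) of HPC-only regions, against 65.9% of the shared regions of either list. The annotation used here gives gene spans and does not separate exons, introns and untranslated parts.

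The regions that set knockout HSC apart from knockout HPC could be looked up in wild-type cells, which the comparison did not use. At equal length, with each of the 4 lists at 8 weeks limited to its 40073 strongest regions, 4947 HSC-only regions were found in exactly 1 wild-type list, and for 89.4% of them (88.6 to 90.3) it was wild-type HSC. Of the 5609 HPC-only regions found in exactly 1, 93.7% (93.0 to 94.3) were in wild-type HPC. With the lists as deposited, where wild-type HPC pools more samples and is much longer, those shares were 43.7% (42.2 to 45.1) of 4449 and 98.5% (98.2 to 98.7) of 10277, so most of these HSC-only regions were then in wild-type HPC. Over all regions of exactly 1 deposited wild-type list, 10.7% of 32886 were in wild-type HSC. The odds of lying in the wild-type HSC list rather than the HPC list were 49.3 times higher (95% interval 41.7 to 58.3, normal on the log scale) for HSC-only than for HPC-only regions in the deposited lists. Regions in neither wild-type list were weak: the 3683 HSC-only ones had a median percentile of 11.8, and the 2493 HPC-only ones 8.50.

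**Figure D2:**
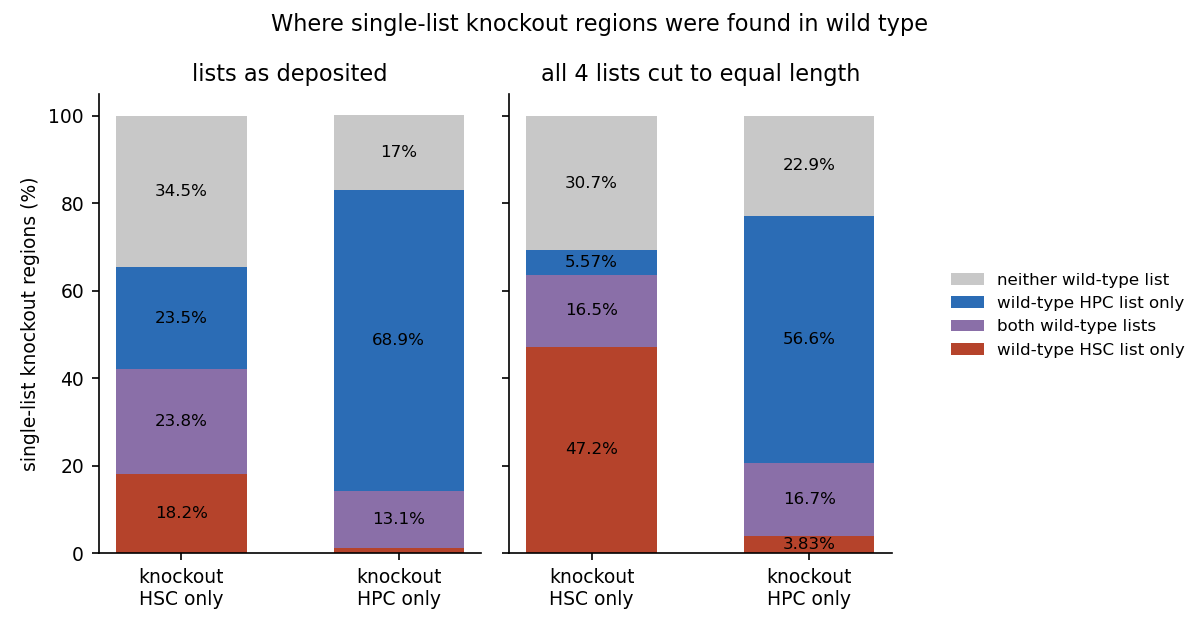
Shares of single-list knockout regions (y axis, %) found in the wild-type HSC list only, both wild-type lists, the wild-type HPC list only or neither, for HSC-only and HPC-only regions, with lists as deposited (left) and all 4 at 40073 regions (right). At equal length 47.2% of HSC-only regions are in wild-type HSC alone and 56.6% of HPC-only regions in wild-type HPC alone.

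The HSC lists from older mice, which are the longest, held 94.8% (vehicle) and 86.9% (5-fluorouracil) of the HSC-only regions and 61.0% and 54.3% of the HPC-only regions. A stem cell set of 1834 HSC-only regions, 17.2%, was in all 3 other HSC lists and not in wild-type HPC. A progenitor set of 3801 HPC-only regions, 25.9%, was in wild-type HPC and in no other HSC list. No other list held 292 HSC-only and 1243 HPC-only regions.

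Each region was given to the nearest gene body within 100 kb, and a gene's net number is its HSC-only minus its HPC-only regions. Of 15885 protein-coding genes with a region, 3446 had more HSC-only regions, 21.7%, and 5034 more HPC-only regions, 31.7%. With both lists at 48620 regions the numbers were 4244 and 3930, so this order depends on list length. A region near a gene need not act on it. Net numbers also favour long genes, since the 20 genes they named had a median length of 362 kb and protein-coding genes as a whole one of 17.2 kb.

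On the HSC side the 10 genes of largest net number included 1 known regulator of stem cells. Prdm16, a zinc finger factor that HSC need to self-renew, had 8 HSC-only and 2 HPC-only regions, and 9 against 1 at equal length. All 8 lay inside the gene at fold enrichments from 4.46 to 16.7, and the highest, at chr4:154399559-154400344, was also in wild-type HSC and not in wild-type HPC. It was the only 1 of the 8 with that look-up: wild-type HSC held 3 of them, wild-type HPC 3 and vehicle HSC 8. Between the wild-type lists Prdm16 had 6 against 5 at equal length and 3 against 8 as deposited. Aff3, a nuclear factor of the AFF family, led with 11 HSC-only regions against 1 HPC-only region. Of these 11, the vehicle list held 10, wild-type HSC 4 and wild-type HPC 4. Thsd4, a secreted matrix protein, had 9 against 1, and none of the 9 was in wild-type HPC. Slc8a1, a sodium-calcium exchanger, had 8 against 2, and all 8 were also in wild-type HSC, 4 of them in all HSC lists and not in wild-type HPC. Fry and D7Ertd443e had 8 against 1, Tiam1 7 against 1 and Nav2 12 against 6.

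On the HPC side, Gse1 had 17 HPC-only regions against 6 HSC-only. Fyn, a Src-family kinase, had 14 HPC-only regions against 2 HSC-only, at fold enrichments from 7.37 to 30.7, and wild-type HPC held 11 of the 14. Vehicle HSC held 9 of the 14 and 5-fluorouracil HSC 4, and 3 were in wild-type HPC and no HSC list. Rptor, the subunit of mTORC1 that recruits its substrates, had 10 against 1, of which 5 were in wild-type HPC and no HSC list. Srgap2, which switches off small GTPases, had 9 HPC-only regions and no HSC-only one. All 9 were in wild-type HPC, none in wild-type HSC and 7 in no HSC list. Vav3, which activates small GTPases, also had 9 against 0, and 7 of the 9 were in wild-type HPC. Vehicle HSC held 6 of these 9 and 5-fluorouracil HSC 7, and 1 was in wild-type HPC and no HSC list. Pard3, a cell polarity protein, had 12 against 2, Sdk1 11 against 1, Zfp704 11 against 2, and Abtb2 and Fstl4 10 against 1. Each of the 20 genes kept the direction of its net number with both lists at equal length.

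**Figure D3:**
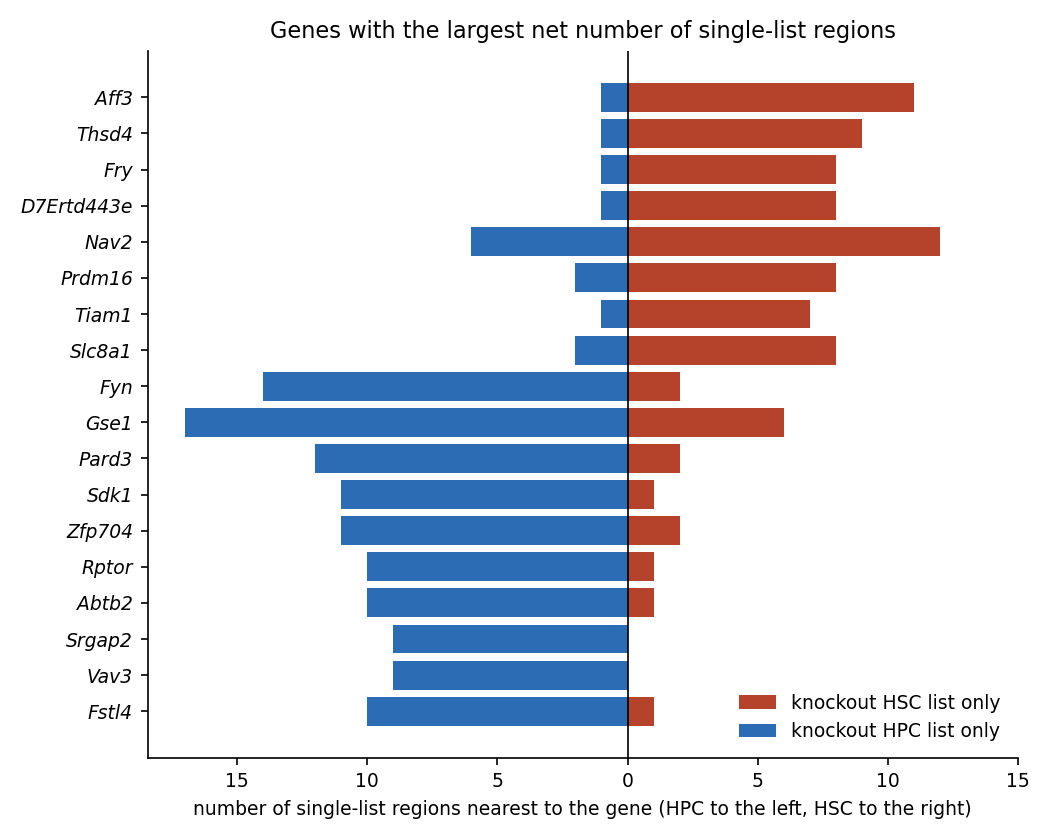
Number of single-list regions nearest to each of 18 of the 20 genes of largest net number (x axis), HSC-only to the right and HPC-only to the left. Aff3 has 11 HSC-only regions against 1, and Fyn 14 HPC-only regions against 2.

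Gene starts gave a view closer to the gene itself. A start counted as open where a region lay within 1 kb. Of 21883 protein-coding genes, 11288 had a start open in both lists, 891 only in knockout HSC, 4.07%, and 725 only in knockout HPC, 3.31%. For genes without strand in the reference, either end stood for the start, and these are called ends below. Of the 891, 93 were open in wild-type HSC and not wild-type HPC, 280 the other way round, 331 in both and 187 in neither. Of the 725, the numbers were 13, 397, 225 and 90.

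Of the stem cell identity list described below, 6 starts were open in knockout HSC only and 2 in knockout HPC only, and 2 against 1 of the megakaryocyte and platelet list. The HPC-only ones were Gfi1 at 9.53, Msi2 at 6.72 and Selp, a platelet adhesion protein, at 10.6. Clec1a, a C-type lectin used to mark HSC, had an open end at chr6:129425809-129426228 with a fold enrichment of 22.9, and the same end was open in the other 3 HSC lists and not in wild-type HPC. Vwf, the clotting protein that marks platelet-biased HSC, had an open end at chr6:125552680-125553126, at 13.3, with the same look-up. Hoxa5 followed the same pattern at 9.20. Ndn stood at 18.3 and Gata2 at 3.92, and for both wild-type HPC was open and wild-type HSC was not. Ends of Hoxb5, a homeobox factor of long-term HSC, and of Cdkn1c, a cell-cycle inhibitor of quiescent HSC, were open at 6.41 and 11.2. Wild-type HSC and wild-type HPC both held the end of Cdkn1c, and neither held that of Hoxb5. Among erythroid and platelet genes, Epb42, a red cell membrane protein, stood at 22.5, Cavin2 at 14.2 and Treml1, a platelet receptor, at 8.90. Wild-type HSC and wild-type HPC both held the starts of Epb42 and Cavin2. The start of Treml1 was open in wild-type HPC and not in wild-type HSC.

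The strongest such starts belonged to genes with less known roles in stem cells. Dync1i2, a subunit of the dynein motor, had the highest fold enrichment of all, 40.0, at chr2:71211515-71212049, and its start was open in every list but knockout HPC. Armh4 stood at 31.8 and Mapk10, a stress-activated kinase, at 26.1, each also in wild-type HSC and not in wild-type HPC. Zim1 stood at 28.5 and Zfp937 at 27.3. Near the starts of Utrn, Pak3 and Hspb7, at 33.2, 26.9 and 26.8, the region reached beyond 1 kb to overlap an HPC region, so the start rather than the region was absent there.

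Of the lymphoid priming list, 4 starts were open in knockout HPC only and 2 in knockout HSC only, the latter Lef1 at 10.2 and Bcl11b at 9.39. Of the markers of T and NK cells, 3 starts were open in knockout HPC only and none in knockout HSC only. Of those of neutrophils and macrophages 1 start each was open in knockout HSC only, S100a8 at 8.13 and Spic at 10.3, and none in knockout HPC only. Il7r stood highest among the named genes of blood, at chr15:9529648-9530056 with a fold enrichment of 28.4, and the nearest HSC region was 65.6 kb away. Cd48 stood at 13.7, Fcgr3, an Fc receptor of myeloid progenitors, at 16.0, and Ly6c2, a monocyte surface protein, at 14.6. Wild-type HPC held all of these starts and wild-type HSC none. The longer vehicle and 5-fluorouracil HSC lists both held those of Il7r, Cd48 and Fcgr3, and neither held that of Ly6c2. The killer-cell genes Gzmb, Prf1 and Nkg7, which encode granule proteins, stood at 19.6, 15.0 and 8.07, and the basophil genes Hdc and Mcpt8 at 21.0 and 13.7. Of the markers of mast cells, basophils and eosinophils, 3 starts were open in knockout HPC only. The start of 1 other, Cpa3, was open in knockout HSC only, at 22.7. Rag1 stood at 10.3 and Blnk, a B cell adaptor, at 9.07. Both HSC lists from older mice also held the starts of Gzmb, Prf1, Nkg7, Hdc, Rag1 and Blnk, and neither held that of Mcpt8. Ccr2, a chemokine receptor of monocytes, had a fold enrichment of 21.2 in a region that overlapped an HSC region beyond 1 kb. The start of Slamf1, whose protein CD150 is used to sort HSC, was open in knockout HPC at 10.4 and not in knockout HSC. It was also open in wild-type HPC, vehicle HSC and 5-fluorouracil HSC and not in wild-type HSC, and away from the start Slamf1 had 2 HSC-only regions. The starts of Hlf, Fgd5, Procr, Mecom and Kit, used as stem cell genes, were open in both knockout lists.

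Among the HPC-only starts of highest fold enrichment were AU021092 at 31.8, Prss43 at 28.8, Ofcc1 at 26.1, Lpin1, an enzyme of lipid synthesis, at 25.3, Cmah, an enzyme of sialic acid synthesis, at 25.2, Tmem30c at 25.1 and Pi16 at 24.8. Wild-type HPC held all of these starts, and wild-type HSC only that of Cmah. Both HSC lists from older mice held them as well, except Prss43, in neither, and Tmem30c, in vehicle HSC only.

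The strongest regions without a counterpart within 1 kb are given by fold enrichment. After the Dync1i2 start, the HSC list had a region inside Arhgap35, a GTPase-activating protein, at chr7:16558176-16558514 with a fold enrichment of 39.0. A region inside Opcml at chr9:28289648-28290121 stood at 37.0, and a region inside Pfkfb2, an enzyme that sets the pace of glycolysis, at chr1:130728031-130728536 stood at 34.0. Both were also in wild-type HSC and not in wild-type HPC. A region inside Dmxl2 stood at 33.6 and a region 59.0 kb from Sox6 at 32.7, and another 2 had no gene within 100 kb. Of the 8 HSC-only regions of highest fold enrichment, wild-type HSC held 8 and wild-type HPC 5. In the HPC list the highest, at chr10:37321194-37321571 with 37.4, had no gene within 100 kb and was found in wild-type HPC and in no HSC list. A region inside Usp32 at chr11:85003523-85003959 stood at 37.1, and a region 5.01 kb from Ms4a1, the B cell surface protein CD20, at 35.8. Inside Dnah7a, Trim36, Slc8a1 and Sema6a such regions stood at 37.0, 36.0, 35.8 and 35.2. Of these 8, wild-type HPC held 8, wild-type HSC 2, vehicle HSC 5 and 5-fluorouracil HSC 4.

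Regions of both lists can also differ in strength. At 48620 regions per list, 36045 regions paired 1 to 1, and a difference in percentile by −log10 p shows a region's place within each list, not a change in signal. By more than 25 points, 3767 stood higher in HSC and 3622 higher in HPC. At gene starts the numbers were uneven: of 10644 pairs, 826 stood higher in HSC, 7.76%, and 264 higher in HPC, 2.48%, and 632 and 280 by fold enrichment. By −log10 p the start of St7 stood at percentile 87.3 in HSC and 9.83 in HPC, the largest difference toward HSC. Acox2, a peroxisomal oxidase, followed with 77.8 against 6.01, Maged1 with 76.6 against 5.97, Myo5c with 85.0 against 18.4 and Slc24a5 with 72.5 against 6.88. In the other direction Trem1, an activating receptor of neutrophils and monocytes, stood at 7.32 in HSC and 91.9 in HPC. Gnl2 stood at 22.7 against 94.6, Nlrc3 at 15.9 against 87.2, Cd5, a T cell surface protein, at 14.0 against 84.5 and Gpr55 at 17.8 against 82.8.

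**Figure D4:**
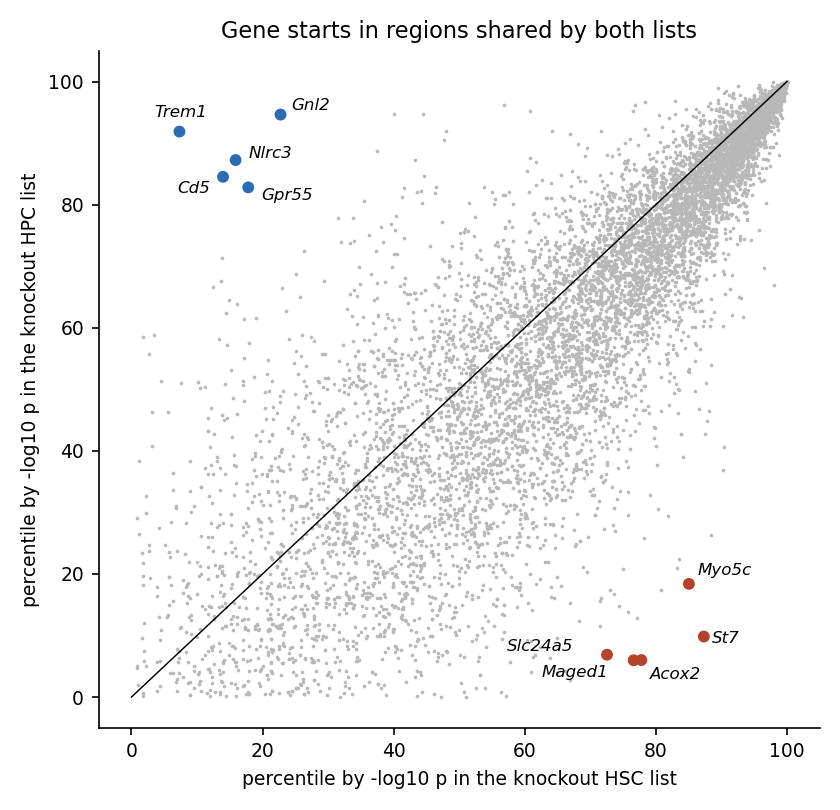
Percentile by −log10 p in the knockout HSC list (x axis) and the knockout HPC list (y axis) of gene starts that lie in regions shared by both lists at equal length, 1 grey point per gene, with equal percentiles on the line and the 10 most different genes coloured. St7 lies at 87.3 against 9.83 and Trem1 at 7.32 against 91.9.

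Of 197 genes of the lists below whose start lay in a paired region, 11 stood higher in HSC by over 25 points, 5.58%, and 8 higher in HPC, 4.06%, beside the 7.76% and 2.48% of all paired starts. The 11 were the platelet genes Pf4 (percentile 88.1 in HSC against 46.4 in HPC) and Gp1ba (98.1 against 67.0), the signalling genes Tgfbr3 (51.9 against 9.18) and Smad3 (84.9 against 52.9), and the cell-cycle genes Cdk4 (52.0 against 16.5), Plk1 and Ccne1, the myeloid genes Csf2rb (82.7 against 52.0) and Padi4 (64.5 against 37.8), and Rel and Zfpm1. The 8 were Cx3cr1, a receptor of monocytes and their precursors (44.4 against 94.7), Csf3r, the receptor for granulocyte colony-stimulating factor (3.16 against 46.3), Adgre1, the macrophage protein F4/80 (14.9 against 64.5), Cd5, named above, Cd244a, Ifnar2, Tlr4 and the platelet gene Plek (55.0 against 82.1).

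Gene lists, written from textbook roles, were described by the share of HSC-only regions among their single-list regions. Over all genes this share was 41.9% (9742 of the HSC list against 13492 of the HPC list) and, with both lists at equal length, 50.2%. Wild-type values given beside them are from the wild-type lists at equal length, 40073 regions each. These shares have no replicate error and no test. Counts of members toward a side stand beside all 15885 genes with a region. Of those, 21.7% leaned to HSC and 31.7% to HPC as deposited, and 4244 against 3930 genes at equal length. In the plot by gene list, platelet, erythroid, quiescence, stroma, macrophage and housekeeping genes and the lists of stem cell identity and stem cell surface stand above all genes at equal length. All other lists stand below. Among them are lymphoid, myeloid, progenitor and cell-cycle genes, but also the transcription factors that stem cells and progenitors share (42.4%). The signalling, interferon, AP-1 and Kmt2 lists and the remaining marker lists stand below as well.

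**Figure D5:**
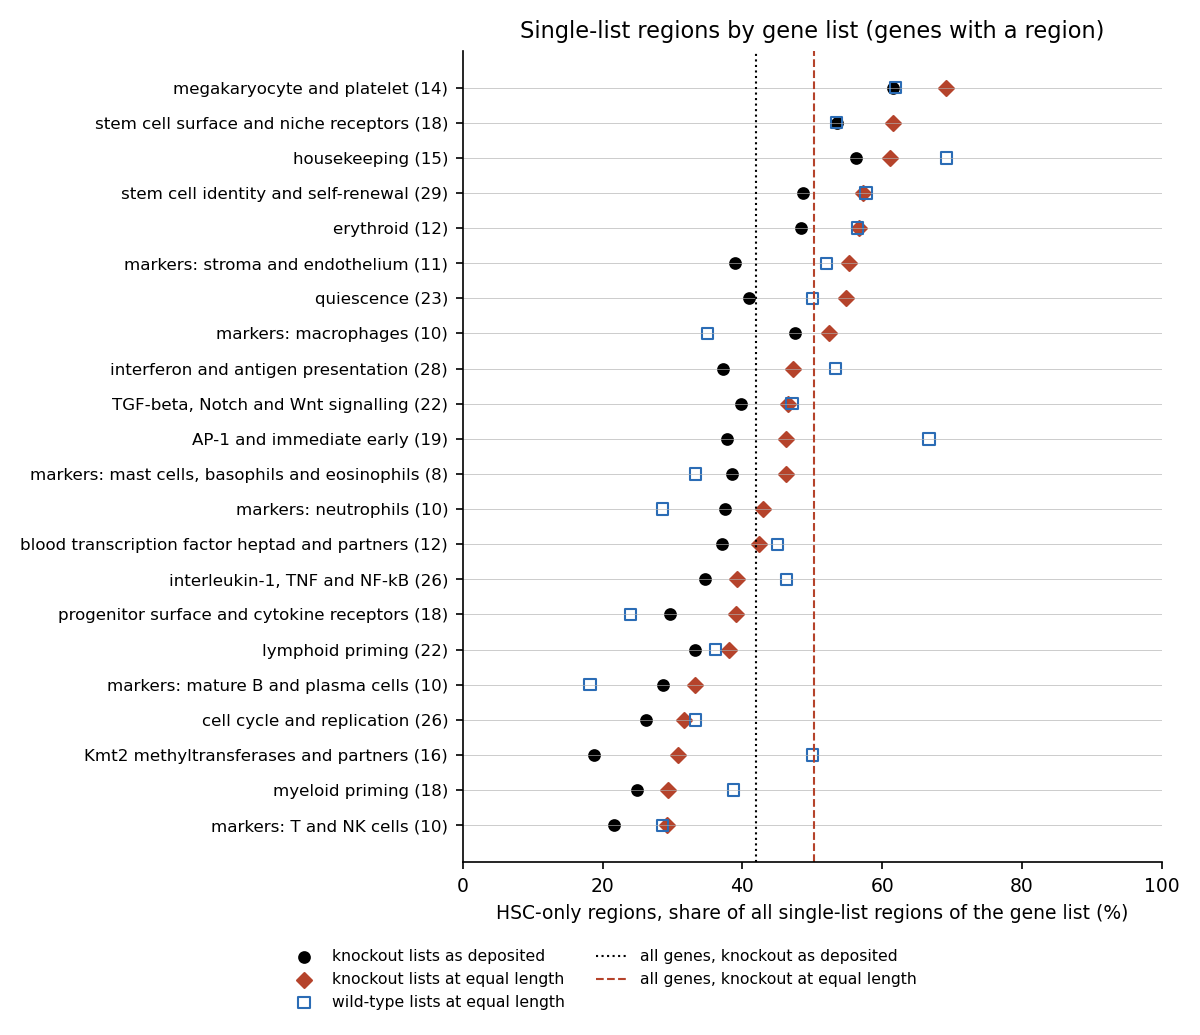
Share of HSC-only regions among the single-list regions of each gene list (x axis, %), with the number of genes that have a region in brackets; lines mark all genes. At equal length it runs from 29.2% for T and NK cell markers to 69.2% for megakaryocyte and platelet genes in the knockout.

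The megakaryocyte and platelet list had 16 HSC-only against 10 HPC-only regions, and 7 of its 14 genes with a region had more HSC-only and 2 more HPC-only regions. At equal length its share was 69.2%, and 61.9% between the wild-type lists. Without the weakest 25% of each list it had 11 against 10 regions and 4 genes toward each side. Treml1 had 2 against 0, and Mef2c, a transcription factor of megakaryocytes and lymphoid cells, 4 against 2. Erythroid genes had 15 against 16 regions, with 5 genes toward HSC and 4 toward HPC. The share at equal length was 56.7%, and 56.5% in wild type. Single HSC-only regions lay near Gata1, Rhag, Ermap, Slc4a1 and Epb42. Nfia had 7 against 10 as deposited and 9 against 7 at equal length.

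Stem cell surface and niche receptors had 30 against 26 regions, with 7 genes toward HSC and 4 toward HPC, and 61.5% at equal length (53.5% in wild type). Without the weakest 25% of each list it had 16 against 22 regions and 5 genes toward each side. Itga6, an integrin chain that binds laminin, had 4 against 1, and 3 of the 4 were in all HSC lists and not in wild-type HPC. Kit, the receptor for stem cell factor, had 4 against 2 and Tgfbr3 5 against 3. Cxcr4, the receptor that holds stem and progenitor cells in the marrow, had 0 against 4. Its regions, from 83.2 kb upstream to 38.3 kb downstream, were all in wild-type HPC, 3 of them in no HSC list. The strongest, chr1:128675516-128676039 with a fold enrichment of 23.8, was not among these 3, as vehicle HSC and 5-fluorouracil HSC also held it.

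The list of stem cell identity and self-renewal was split within itself. It had 75 HSC-only against 79 HPC-only regions and 12 genes toward each side, and at equal length 13 toward HSC and 7 toward HPC with a share of 57.2% (57.7% in wild type). Besides Prdm16, Mecom, the zinc finger factor also called Evi1, had 7 against 4, all inside the gene, and its highest HSC-only region, chr3:30178156-30178963, stood at 17.8 and was in neither wild-type list at 8 weeks. Toward HPC stood Dnmt3a, the DNA methyltransferase that limits self-renewal, with 0 against 6 and Etv6, an ETS factor that HSC need, with 3 against 7. At equal length Dnmt3a had 0 against 3 and Etv6 5 against 7. The 6 at Dnmt3a were weak, the strongest at percentile 33.8 by −log10 p. Wild-type HPC held 4 of the 6, vehicle HSC 2 and 5-fluorouracil HSC 3. Gfi1, a repressor that restrains HSC division, had 1 against 4 and Msi2, an RNA-binding protein, 5 against 8.

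The transcription factors that stem cells and progenitors share had 23 against 39 regions, with 2 of 12 genes toward HSC and 7 toward HPC. At equal length it was 2 and 5 with 42.4% (45.0% in wild type), and without the weakest 25% of each list 5 and 5. Runx1 had 2 against 9, with the strongest HPC-only region inside the gene at chr16:92715501-92716361, at 18.5. That region was also in wild-type HPC, vehicle HSC and 5-fluorouracil HSC. Erg, an ETS factor, had 4 against 10, and 9 of the 10 were in wild-type HPC. Vehicle HSC held 4 of the 10 and 5-fluorouracil HSC 3, and 5 were in wild-type HPC and no HSC list. Toward HSC were Zfpm1, the GATA cofactor also called FOG1, with 4 against 1, and Gata2 with 2 against 0. Of the 4 regions of Zfpm1, all inside the gene, 3 were in all HSC lists and none in wild-type HPC, and the strongest was chr8:122309057-122309880 at 13.9.

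Cell-cycle and replication genes had 11 against 31 regions, with a share of 31.7% at equal length (33.3% in wild type). As deposited, 3 genes leaned to HSC, 11.5%, and 10 to HPC, 38.5%, the latter near the share of all genes. At equal length it was 3 against 5 genes. The HPC-only regions lay mainly at the kinase and cyclins of early G1. Cdk6 had 2 against 9, and 8 of the 9 were in wild-type HPC and not in wild-type HSC. The longer vehicle HSC list held 6 of the 9 and 5-fluorouracil HSC 4, and 2 were in wild-type HPC and no HSC list. The HPC-only regions of Cdk6 ran from 93.3 kb upstream, chr5:3247372-3247715 at 20.9, into the gene. Ccnd1 had 1 against 6, and 5 of the 6 lay outside the gene, the farthest 89.3 kb away at chr7:145029116-145029558 with 16.1. That farthest region was also in wild-type HSC, wild-type HPC, vehicle HSC and 5-fluorouracil HSC. All 6 were in wild-type HPC, and 4 of them in no HSC list. Ccnd2 had 0 against 4 and Ccnd3 1 against 2. No start of the list was open in 1 knockout list alone. Quiescence genes had 18 against 26 regions, 40.9%, and 54.8% at equal length (18 regions of each list in wild type), with Foxo3 at 6 against 6 and Dlk1 at 0 against 4.

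Lymphoid priming had 24 against 48 regions, with 38.1% at equal length (36.2% in wild type). It had 4 genes toward HSC, 18.2%, and 14 toward HPC, 63.6%, and 5 against 12 at equal length. Ebf1, which sets B cell fate, had 2 against 6, Notch1, the receptor for T cell fate, 0 against 4 and Foxo1 3 against 7. Of the 4 at Notch1, 3 lay upstream and were in wild-type HPC and no HSC list. Dntt, which adds bases to antigen receptor joins, had 1 against 3. Tox had 3 against 0 and Gata3, both transcription factors of T cells, 3 against 1. Myeloid priming had 9 against 27 regions, with 29.4% at equal length (38.7% in wild type). It had 2 genes toward HSC, 11.1%, and 11 toward HPC, 61.1%, and 2 against 9 at equal length. Klf4, a factor of monocytes, had 1 against 5, Cybb 0 against 3 and Cebpa, the master factor of granulocytes, 0 against 2. Cebpb, which acts in emergency granulocyte production, had 3 against 1. Progenitor surface proteins and cytokine receptors had 8 against 19 regions, with 39.1% at equal length (24.0% in wild type), led by Fcgr3 with 0 against 4. They had 4 genes toward HSC, 22.2%, and 8 toward HPC, 44.4%, and 5 against 8 at equal length.

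Markers of mature cells are given beside the lymphoid and myeloid results, since the markers used to sort the cells are not in the labels. T and NK cell markers had 5 against 18 regions and no gene toward HSC against 9 toward HPC, with 29.2% at equal length (28.6% in wild type). Cd3e had 0 against 2, Cd2 1 against 3 and Cd8b1 0 against 1. Of these 13 markers, 3 starts were open in HSC and 6 in HPC, and the start of Cd3e was open in neither. Mature B and plasma cell markers had 6 against 15 regions, with 3 of 12 starts open in HSC and 4 in HPC, and the start of Ms4a1 open in neither. Markers of neutrophils had 3 against 5 regions, of macrophages 10 against 11, of mast cells, basophils and eosinophils 5 against 8, and of stroma and endothelium 14 against 22. Cpa3, the mast cell protease, had 3 against 0. The part of mature cells in the lineage results was not tested.

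TGF-beta, Notch and Wnt genes had 37 against 56 regions and 46.6% at equal length (47.1% in wild type), near the 50.2% of all genes. Tgfbr2, the receptor through which TGF-beta restrains HSC division, had 2 against 9, all 9 in wild-type HPC and 4 in no HSC list. Hes1, a target of Notch, had 3 against 7, and Bmpr2 2 against 0. Interferon and antigen presentation genes had 16 against 27 regions and 47.2%, also near all genes (53.3% in wild type), with Ifngr1, the receptor for interferon gamma, at 1 against 5. Of these genes, 6 leaned to HSC, 21.4%, and 10 to HPC, 35.7%, and 8 against 7 at equal length. Their starts went the other way from Ifngr1: 2 were open in knockout HSC only, Oas1a at 20.2 and Ifit3 at 13.5, and 0 in knockout HPC only. The list of interleukin-1, TNF and NF-kB had 18 against 34 regions and 39.2% (46.3% in wild type). It had 3 genes toward HSC, 11.5%, and 14 toward HPC, 53.8%, and 3 against 9 at equal length. Il18r1 had 0 against 3, and Il1rl1, Tnfrsf1a and Irak2 0 against 2.

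AP-1 and immediate early genes, which respond within minutes to stimuli including cell handling, stood at 17 against 28 regions. Their share at equal length was 46.3% in the knockout and 66.7% between the wild-type lists (18 against 9), a difference that has no replicate error and was not tested. Fos had 1 against 8 in the knockout and 1 against 4 at equal length, set beside 3 against 1 in wild type at equal length and 2 against 8 in its deposited lists. Its HPC-only regions had low fold enrichments, from 2.76 to 10.8. By −log10 p they ran from percentile 0.619 to 63.2, the highest being the region at the start. Jun, the partner of Fos, had 5 against 1 in the knockout and, in wild type, 4 against 0 at equal length and 1 against 2 in the deposited lists. The starts of Fos, Fosb, Jund and Zfp36 were open in knockout HPC only, at 6.40, 3.25, 3.41 and 2.79.

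The Kmt2 methyltransferases and their partners had 3 HSC-only against 13 HPC-only regions, 18.8%, and 30.8% at equal length, beside 5 against 5 in wild type. Kmt2a, the gene of MLL1, and Kmt2e had 0 against 3 each, and 0 against 1 at equal length. Wild-type HPC held 3 and 2 of them, and both older HSC lists held all of them. Setd1b, Kmt2b, Paxip1, Wdr5 and Ncoa6 had 0 against 1 each, and Kmt2d, the closest relative of Kmt2c, and Men1 1 against 1. Housekeeping genes, which served as a control, had 9 against 7 regions and 61.1% at equal length, beside 69.2% in wild type. That is as far from all genes as the stem cell lists, so shares of lists this small are a description only.

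At equal number, the single-list shares of the knockout lists and of their wild-type counterparts were close by −log10 p. With 40073 regions per list by −log10 p, 23.4% (23.0 to 23.8) of knockout HSC regions and 23.2% (22.8 to 23.6) of knockout HPC regions were in a single list. In wild type it was 23.7% (23.3 to 24.1) and 24.3% (23.9 to 24.7). At the 5000 strongest the HSC-only share was 30.7% in the knockout and 30.1% in wild type, at 10000 it was 28.6% and 27.6%, and at 20000 it was 26.1% and 25.1%. By fold enrichment at 40073 it was 25.3% in the knockout and 29.4% in wild type, so which genotype had the larger share depended on the measure and the number. The wild-type HPC list pools 4 samples and the other 3 lists 2, and that cannot be told apart from genotype.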

How the data were processed

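Tn5 tagmentation is named in the labels' protocols, and Bowtie2, MACS2 and the mouse build mm10 (GRCm38) in the submitters' processing notes. Versions, the threshold and how samples were combined were not given in the sources used here. Under extracted molecule the labels list RNA, at odds with an assay of DNA. In each deposited list the authors give a fold enrichment (a ratio over local background) and a −log10 p per row. The deposited score was not used. The summit offset was used for windows of 200 bp. Per the labels all samples of a group share 1 list, taken here to pool them, so no test across samples was possible, and read depth is not known. Lists grow with depth, pooled samples and threshold, hence the equal-length comparisons.

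Overlapping rows were merged, and a region took its highest values. Overlap was at least 1 bp. Coordinates are on mm10, counted from 1. Genes and promoters came from RefSeq tables of GRCm38.p6, and 403 of 406 symbols in 22 gene lists matched. The named genes were, per direction, the 10 of largest net number, the genes at the 8 strongest regions and 8 strongest starts by fold enrichment, the 5 shared starts of largest percentile difference, up to 4 genes per gene list, and Kmt2c. Other genes, among them most named starts, ranked list genes and printed promoters, were chosen after their values were seen. The members and lists were chosen with earlier results of these data known. No genome was given, so motifs were searched in promoters only. Overlap, merging and gene assignment were tested on simulated data. Python 3.11.15, pandas 2.3.3 and scipy 1.17.1 were used. Some genes that meet the rule are not reported here.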

Additional observations from a re-analysis of the deposited data

How the results depend on the processing

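No paired analysis was possible because each group has a single pooled list, and for the same reason no replicate could be left out. The counts of single-list regions, of genes by net number, of single-list starts and of ranked pairs moved by less than 1.5 times under every setting run on them; HSC-only regions ran from 7320 without the weakest 25% of each list to 12530 at equal number by fold enrichment, and HPC-only regions from 10388 to 16244 (with summit windows). The order of HSC-side and HPC-side genes turned at equal number, as given above. Of regions found in exactly 1 wild-type list, the share in wild-type HSC was 48.6% for HSC-only and 2.86% for HPC-only regions with summit windows of 200 bp (odds ratio 32.1), and 89.4% and 6.35% with all 4 lists limited to the shortest (odds ratio 125). At equal number the HSC-only and HPC-only shares were 28.6% and 28.6% in the knockout and 27.6% and 27.6% in wild type for the 10000 strongest, 26.1% and 25.9% against 25.1% and 25.2% for the 20000 strongest, and 25.3% and 25.1% against 29.4% and 29.9% by fold enrichment. Counting members toward HSC minus members toward HPC, the quiescence, interferon and stroma lists turned to 1, 1 and 2 at equal number, the interferon list to 1 without the weakest 25%, and the housekeeping list to -1 with nothing within 1 kb. Without the weakest 25%, the platelet and stem cell surface lists had equal numbers of members on each side. Of 88 list values 69 kept their sign, 14 went to or left 0 and 5 turned; of 572 net numbers of named genes, 510, 51 and 11. Those that turned were Arhgap35 (1) and Kdr (2) and Nfia (2) at equal number, Arhgap35 (1), Gnl2 (-1), Kdr (1), Kmt2c (-1), Myc (3) and Myo5c (1) without the weakest 25%, and Sox6 (-2) and Utrn (-2) with the nearest gene start or end. The causes were not tested. With read depth unknown, an absent region means absent from a list, not closed chromatin.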

Other observations

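Gene starts leaned to the HSC side in both genotypes. With 40073 regions per list, 15.8% (95% Wilson interval 15.1 to 16.6) of knockout HSC-only regions lay within 1 kb of a gene start, against 8.09% (7.55 to 8.66) of knockout HPC-only regions. In wild type the shares were 18.1% (17.3 to 18.8) and 7.43% (6.93 to 7.97). Among paired regions at starts, 857 stood over 25 percentile points higher in knockout HSC and 272 higher in knockout HPC, while over all 30370 pairs the numbers were 3439 and 3308. In wild type the numbers at starts were 966 and 228, and over all 29949 pairs 3430 and 2884. This setting was added after the data were seen.

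By chromosome, the HSC-only share of knockout HSC regions ran from 19.1% on chromosome 11 to 24.7% on chromosome 3 among autosomes and was 27.7% of 899 regions on chromosome X. The HPC-only share ran from 23.9% on chromosome 11 to 31.3% on chromosome 1 and was 26.7% of 896 regions on chromosome X. The sex of the mice is not given in the labels.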
